A study of Mus musculus with 4 samples.

Results

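The genes described here are 10 genes named for luminal hormone-sensing cells, Esr1, Pgr, Foxa1, Gata3, Tbx3, Cited1, Prom1, Tspan8, Fgl2 and Greb1, out of 22180 genes with a probe set that the platform annotation assigns to exactly 1 gene symbol. Each was represented by its probe set with the highest mean over the 4 arrays, and only Gata3 had more than 1 such probe set, with 2. Transcript levels were measured on Affymetrix arrays in mammary epithelial cell aggregates from the inguinal glands of mice aged 4 weeks on a congenic FVB/NJ background. In 2 samples the mice were Cre-expressing (MMTV-Cre+), so that Cre recombinase is made under the mammary tumour virus promoter, which is active in mammary epithelium, and the other 2 samples are from wild-type littermates. No other allele and no treatment is named in the labels. They call the samples biological replicates without saying how many mice each held, so the spread given here is between samples. According to the labels the tissue was free of lymph node, and stromal cells were removed by centrifugation after collagenase digestion. The comparison asks how cells of Cre-expressing glands differ in transcripts from those of wild-type littermates.

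The mammary duct has an inner luminal and an outer basal layer, and the luminal layer holds hormone-sensing cells, marked by receptors for oestrogen and progesterone, beside progenitor and secretory cells that mostly lack them. Hormone-sensing cells respond to ovarian hormones and pass the signal to their neighbours through secreted factors such as amphiregulin, WNT4 and RANK ligand. The pioneer factor FOXA1 opens chromatin for the oestrogen receptor, GATA3 maintains luminal fate and acts with both, and the viral promoter that drives Cre itself responds to steroid hormones. Puberty, when oestrogen drives ducts to extend, begins at about the age studied here.

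The sequences before the start sites show which members carry the letters of these factors' motifs. RefSeq promoter sequences (GRCm38.p6) were found for 9 of the 10 genes, all but Tbx3, and the 250 bases before the most upstream start were searched on both strands. The oestrogen receptor half-site AGGTCA occurred in 1 member, Greb1, and in 13.8% of all 27025 promoters of this length. The forkhead motif TGTTTAC occurred in 2 members, Foxa1 and Tspan8, and in 3.06% of all promoters. Neither the GATA motif AGATAA (10.2% of all promoters) nor the progesterone receptor half-site TGTTCT (16.1%) occurred in a member's window. None of the matches overlapped another. The windows with a match are printed 5′ to 3′ on the strand of the gene, and the capitals mark the match.
Greb1, chr12:16800887-16801136, minus strand: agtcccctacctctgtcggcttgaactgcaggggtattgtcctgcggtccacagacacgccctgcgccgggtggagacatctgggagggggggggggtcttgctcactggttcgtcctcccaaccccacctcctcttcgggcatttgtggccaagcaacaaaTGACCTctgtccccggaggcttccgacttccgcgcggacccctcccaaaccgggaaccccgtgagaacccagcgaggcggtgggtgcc
Foxa1, chr12:57546112-57546361, minus strand: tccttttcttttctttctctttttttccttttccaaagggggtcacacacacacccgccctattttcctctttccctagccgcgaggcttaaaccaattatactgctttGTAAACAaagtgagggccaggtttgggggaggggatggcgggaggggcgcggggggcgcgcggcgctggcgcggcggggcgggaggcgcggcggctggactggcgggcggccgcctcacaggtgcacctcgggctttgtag
Tspan8, chr10:115817034-115817283, plus strand: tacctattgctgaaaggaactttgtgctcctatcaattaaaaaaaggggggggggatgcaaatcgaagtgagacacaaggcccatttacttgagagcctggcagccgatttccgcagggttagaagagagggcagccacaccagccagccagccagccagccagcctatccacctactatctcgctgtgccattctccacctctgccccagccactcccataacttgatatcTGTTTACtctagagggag
The half-site in Greb1 lay 83 to 88 bases before the start and reads as its reverse complement, as does the forkhead match in Foxa1 at 135 to 141 bases. The forkhead match in Tspan8 lay 12 to 18 bases before the start. A match of letters is no measurement of binding.

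Of the 10 genes, 9 lay above 2.84, the median of all probe sets on the log2 scale, which was set as the limit for dim genes, and they did so in all 4 arrays. Greb1 lay below it in all 4. None of the 9 differed between MMTV-Cre and wild-type by limma with Benjamini-Hochberg adjustment over all 11668 genes tested, where 0% of genes passed, and none had an unadjusted p under 0.05, against 4.32% of all genes. Differences, MMTV-Cre minus wild-type, ran from −0.0040 for Pgr to 0.25 for Fgl2, on the log2 scale, with 8 above 0 and 1 below. Their median was 0.061, where the median of all genes tested was −0.0039 and 49% lay above 0. For 7 of the 9 the 95% interval lay within a 1.5-fold change either way, and 71.1% of all genes tested had such an interval. The exceptions were Foxa1 and Fgl2, whose upper bounds passed it.

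**Figure D1:**
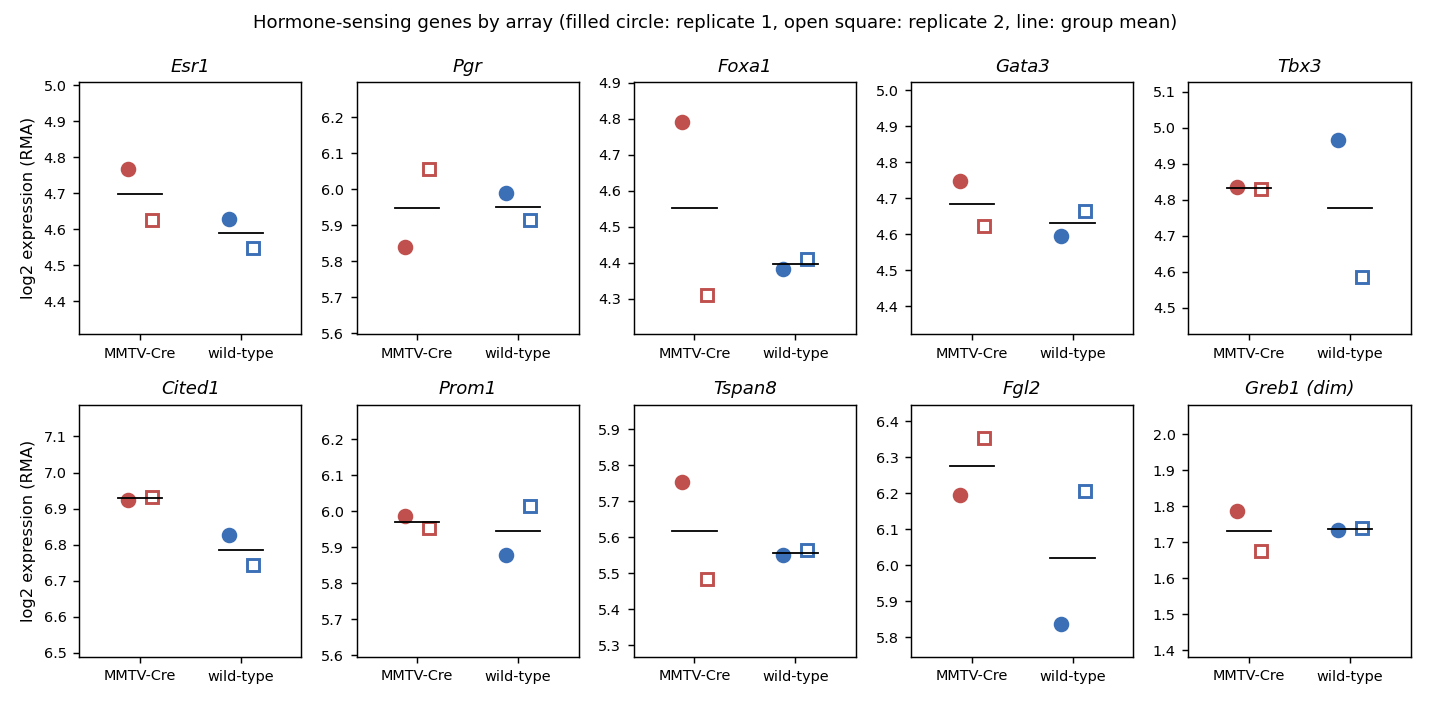
Log2 expression of each of the 10 genes in the 4 arrays, with MMTV-Cre in red and wild-type in blue, replicate 1 as a filled circle, replicate 2 as an open square and the group mean as a line. All panels span the same 0.7 log2 units. The groups are apart only for Cited1, with MMTV-Cre at 6.92 and 6.93 and wild-type at 6.83 and 6.74, and replicates of Foxa1, Tbx3, Tspan8 and Fgl2 lie far apart within a group.

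Among the receptors, Esr1 (Entrez Gene 13982, probe set 17231461) encodes oestrogen receptor alpha, the receptor through which oestrogen drives duct growth. It measured 4.77 and 4.63 in MMTV-Cre replicates 1 and 2, with 4.63 and 4.55 in wild-type replicates 1 and 2. MMTV-Cre replicate 1 was the highest array, and the other MMTV-Cre array fell between the wild-type values, so the groups overlapped. The log2 difference was 0.11 (SE 0.12, 95% interval −0.19 to 0.41, n = 2 per group), or 1.08-fold (0.875 to 1.33). It was 0.037 without MMTV-Cre replicate 1 and between 0.067 and 0.18 without any other array.

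Pgr (Entrez Gene 18667, probe set 17514637) encodes the progesterone receptor, which is itself induced by oestrogen in hormone-sensing cells. Its values were 5.84 and 6.05 in MMTV-Cre and 5.99 and 5.91 in wild-type. Both extremes belonged to MMTV-Cre, with the wild-type arrays between them. The group means were 5.95 and 5.95, the difference was −0.0040 (SE 0.13), and the interval of −0.33 to 0.32 corresponds to 0.795 to 1.25-fold. In MMTV-Cre replicate 1, where Esr1 was highest, Pgr was at its lowest. The sign of so small a difference turned when arrays were rescaled, to 0.0042 by quantile normalization and 0.020 by median centring, and to 0.10 without MMTV-Cre replicate 1 and 0.034 without wild-type replicate 1.

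Among the transcription factors, Foxa1 (Entrez Gene 15375, probe set 17281337) had the widest separation of replicates in 1 group. It reached 4.79 in MMTV-Cre replicate 1 against 4.31 in replicate 2, with wild-type at 4.38 and 4.41. The 3 other arrays lay within 0.1 of each other, so 1 MMTV-Cre array stood above the rest. The difference was 0.15 (SE 0.18, interval −0.32 to 0.62), and it was −0.085 without MMTV-Cre replicate 1.

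Gata3 (Entrez Gene 14462, probe set 17381533) measured 4.75 and 4.62 in the MMTV-Cre arrays and 4.60 and 4.67 in the wild-type arrays, with MMTV-Cre replicate 1 again highest. Its difference was 0.054 (SE 0.11, interval −0.24 to 0.35) and −0.0093 without that array. The dimmer probe set of the gene (17366644) ranged from 3.47 to 3.56 and gave −0.023 (−0.30 to 0.26), so the probe sets differed in sign but both intervals covered 0. A further probe set that carries Gata3 with neighbouring transcripts was not used.

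Tbx3 (Entrez Gene 21386, probe set 17441595) encodes a T-box factor needed for mammary bud formation and expressed in hormone-sensing cells. It measured 4.84 and 4.83 in the MMTV-Cre arrays and 4.97 and 4.59 in the wild-type arrays, so that both MMTV-Cre arrays lay between the wild-type ones. The difference was 0.057 (SE 0.16, interval −0.35 to 0.47) and turned to −0.13 without wild-type replicate 2.

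Cited1 (Entrez Gene 12705, probe set 17543664) encodes a transcriptional coactivator that binds the oestrogen receptor and is a marker of hormone-sensing cells. It was the 1 member whose groups did not overlap, with 6.92 and 6.93 in the MMTV-Cre arrays and 6.83 and 6.74 in the wild-type arrays. Of all genes tested, 16.7% were higher in both MMTV-Cre arrays in this way, so 1 of 9 is not above the background. The log2 difference of 0.14 (SE 0.11, interval −0.14 to 0.42), or 1.10-fold, exceeded the gap between replicates in both groups, as it did for 21.6% of all genes and for no other member. It did not pass by limma (adjusted p = 0.971). Its sign held when each array was left out, with values of 0.10 to 0.19.

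Prom1 (Entrez Gene 19126, probe set 17447835) encodes the membrane protein prominin-1, used on the cell surface to sort hormone-sensing cells from progenitors. It varied least of the 9, at 5.99 and 5.95 in MMTV-Cre and 5.88 and 6.01 in wild-type, a range of 0.14 over the arrays. MMTV-Cre lay inside the wild-type values, and the difference was 0.024 (SE 0.11, interval −0.27 to 0.32), or −0.044 without wild-type replicate 1. Tspan8 (Entrez Gene 216350, probe set 17237412), a tetraspanin of the cell membrane, measured 5.75 and 5.48 in the MMTV-Cre arrays and 5.55 and 5.56 in the wild-type arrays. Like Foxa1, it was highest in MMTV-Cre replicate 1 and lowest in MMTV-Cre replicate 2, with nearly equal wild-type arrays between them. Its difference was 0.061 (SE 0.14, interval −0.28 to 0.41), and −0.073 without MMTV-Cre replicate 1.

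Fgl2 (Entrez Gene 14190, probe set 17435089) encodes a fibrinogen-like protein that is also made by macrophages and T cells. It measured 6.19 and 6.35 in the MMTV-Cre arrays and 5.84 and 6.21 in the wild-type arrays, the widest range of the 9 at 0.52. Wild-type replicate 1 alone was low, and wild-type replicate 2 lay between the MMTV-Cre arrays. The difference was 0.25 (SE 0.16, interval −0.17 to 0.67), or 1.19-fold, with an adjusted p of 0.964 by limma. Without wild-type replicate 1 it was 0.068, and without wild-type replicate 2 it was 0.44. The array with the lowest Fgl2 was the one with the highest T and NK cell transcripts, whose list (12 of 13 genes measured, 9 above the limit, Cd4, Cd8a and Cd8b1 dim on average) summed on the linear scale to 94 to 96.9 in MMTV-Cre and to 98.06 and 519.9 in wild-type. The macrophage and dendritic cell list (14 of 15 measured, 8 above the limit, with Adgre1, Fcgr1, Itgax, Ccr2, C1qc and Cd163 dim on average) summed to 225.6 and 327 in MMTV-Cre replicates 1 and 2 and to 331.7 and 284.6 in wild-type. Their part in the Fgl2 values was not tested.

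Greb1 (Entrez Gene 268527, probe set 17280086) is an oestrogen-induced gene whose product binds the receptor's transcription complex, and its promoter is one of those printed above. It measured 1.79 and 1.68 in the MMTV-Cre arrays and 1.73 and 1.74 in the wild-type arrays, below the limit for dim genes in every array, and was not tested with the others. In the fit of all genes without that limit the difference was −0.0048 (interval −0.30 to 0.29). At such a signal a change of the transcript may not be visible.

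**Figure D2:**
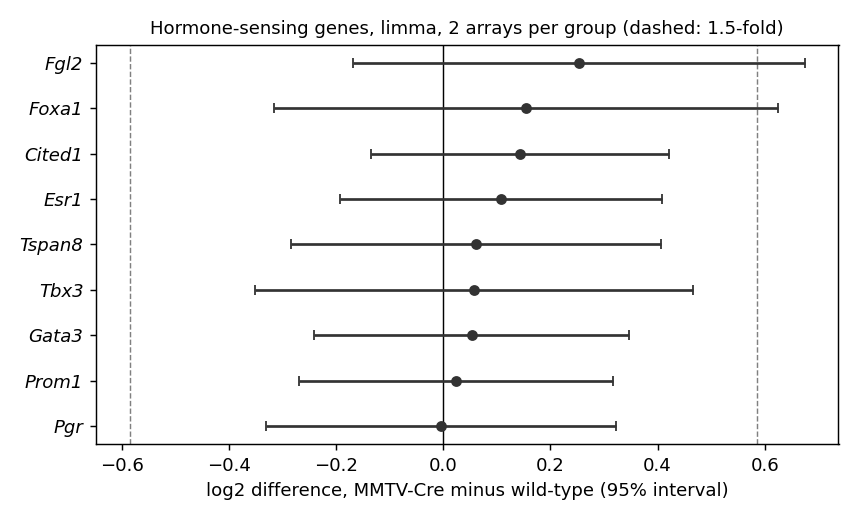
Log2 difference, MMTV-Cre minus wild-type, of the 9 hormone-sensing genes tested, with 95% intervals from limma on 2 arrays per group and dashed lines at a 1.5-fold change. All 9 intervals include 0, from Pgr at −0.0040 to Fgl2 at 0.25, and only those of Foxa1 and Fgl2 reach past the upper line.

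Much of the variation of these genes lay between replicates. The residual standard deviation had a median of 0.11 over the 9 members and of 0.13 over all genes tested, and the range over the 4 arrays had medians of 0.22 and 0.31. Esr1, Foxa1, Gata3 and Tspan8 were highest in MMTV-Cre replicate 1, Pgr, Cited1 and Fgl2 in MMTV-Cre replicate 2, Tbx3 in wild-type replicate 1 and Prom1 in wild-type replicate 2. After subtracting each gene's mean, the 9 genes averaged 0.084 and 0.010 in MMTV-Cre replicates 1 and 2 and −0.047 and −0.048 in wild-type. Their median difference was 0.037 without MMTV-Cre replicate 1, with 6 of 9 above 0, and 0.14 without MMTV-Cre replicate 2, with 8 of 9. These are bulk samples, in which fewer cells of a type and less RNA per cell cannot be told apart.

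Genes of other cell types also differed between the MMTV-Cre replicates, and the adipocyte and endothelial lists in the same order between the wild-type replicates. On the same centred scale the fibroblast list (14 of 14 genes above the limit) averaged −0.16 and 0.39 in MMTV-Cre replicates 1 and 2, against −0.13 and −0.10 in wild-type. Its summed linear level was 2268 and 2858 in MMTV-Cre and 2184 to 2237 in wild-type. The adipocyte list (10 of 11 measured, 8 above the limit, Plin4 and Lep dim) averaged −0.29 and 0.25 in MMTV-Cre and −0.045 and 0.088 in wild-type, with sums of 965.2 and 1334 against 975.7 to 1184. The macrophage and dendritic cell list averaged −0.28 and 0.28 in MMTV-Cre and −0.017 and 0.015 in wild-type. The endothelial list (10 of 10 above the limit) averaged −0.14 and 0.18 in MMTV-Cre and −0.25 and 0.21 in wild-type, so there the lowest array was wild-type replicate 1, and its sums were 666.1 to 869.2 in MMTV-Cre and 619.6 to 825.8 in wild-type. MMTV-Cre replicate 1, the array with the highest Foxa1 and Tspan8, lay below MMTV-Cre replicate 2 for all 4 lists by both measures. It was the lowest of the 4 arrays for the fibroblast, adipocyte and macrophage lists by centred mean, and for the adipocyte and macrophage lists by sum. Their part in the values of Esr1, Foxa1, Gata3 and Tspan8 was not tested.

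**Figure D3:**
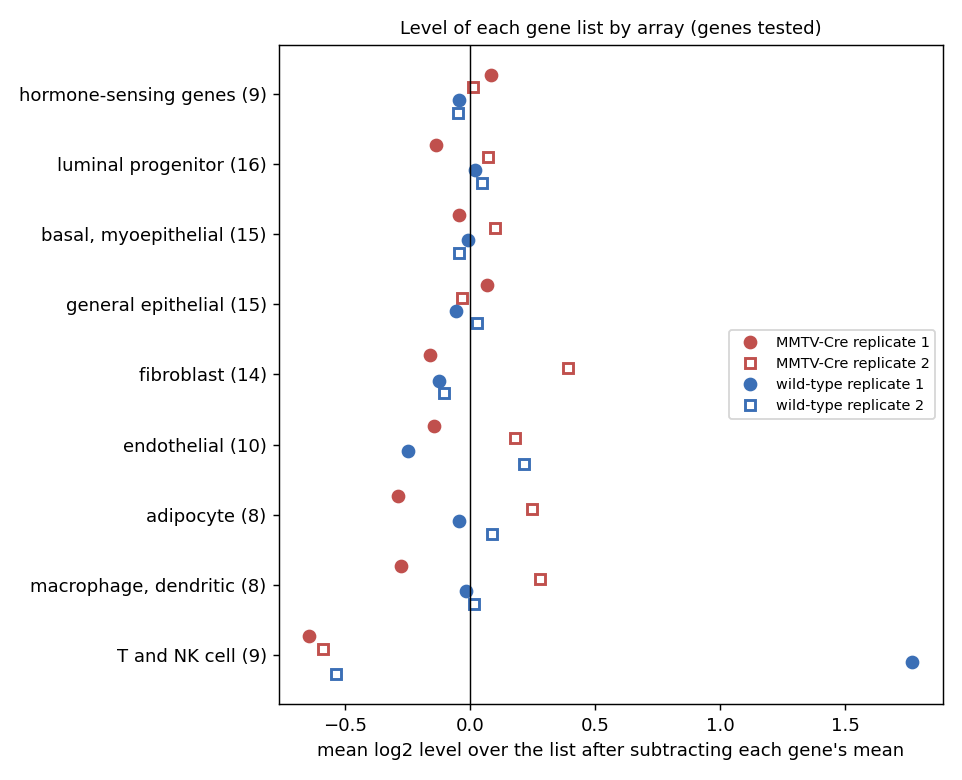
Mean log2 level of each gene list in each array after subtracting every gene's mean over the arrays, with MMTV-Cre in red, wild-type in blue, replicate 1 filled and replicate 2 open, and the number of genes tested in brackets. The hormone-sensing genes spread from −0.048 to 0.084, fibroblast genes stand at 0.39 in MMTV-Cre replicate 2, and T and NK cell genes stand at 1.77 in wild-type replicate 1 alone.

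Epithelial transcripts were present beside those of other cell types. All 15 general epithelial genes were above the limit in mean level. So were all 14 fibroblast and all 10 endothelial genes, so this is no measure of purity. The centred mean of the general epithelial genes was 0.065 and −0.034 in MMTV-Cre replicates 1 and 2 and −0.057 and 0.025 in wild-type. The median difference was 0.033, with 8 above 0 and 7 below, 0 of 15 passed, and the groups did not overlap for 4 genes that were higher and 2 that were lower in MMTV-Cre, where 33.1% of all genes did not overlap. The luminal keratin gene Krt18 stood at 10.18 in both MMTV-Cre arrays and at 10.01 and 9.99 in wild-type (0.18, interval −0.092 to 0.45, and 0.12 for the mean of its 2 probe sets), and the claudin genes Cldn7, Cldn4 and Cldn3 differed by 0.19, 0.17 and 0.17 (0.12 to 0.26 without 1 array each). Genes that went the other way, chosen after their values were seen, include Krt8, the keratin partner of Krt18, at −0.056 and the E-cadherin gene Cdh1 at −0.13, both lower in both MMTV-Cre arrays, and Krt7 at −0.13. Over all genes tested, the correlation between arrays was 0.977 to 0.987, and wild-type replicate 1 had the lowest values.

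The luminal progenitor list is the closest neighbour of the hormone-sensing genes in the duct. Of its 16 genes, 0 passed, 10 had differences below 0 and the median was −0.070. By array its centred mean was −0.14 and 0.072 in MMTV-Cre replicates 1 and 2 and 0.020 and 0.046 in wild-type, so MMTV-Cre replicate 1 was the lowest array for progenitor genes. The same array was the highest for the hormone-sensing genes, for the general epithelial list and, at 0.035, for the hormone response list. Lurap1l differed by 0.42 and the carbonic anhydrase gene Car2 by −0.39, both with unadjusted p = 0.017 and neither passing. Slc34a2 differed by −0.34 and the integrin gene Itga2 by −0.30, which were −0.19 and −0.078 without MMTV-Cre replicate 1. Slc34a2 was near the limit for dim genes, with a mean below it in MMTV-Cre (2.68) and above it in wild-type (3.03). Of the 15 basal and myoepithelial genes tested, 0 passed, 8 had differences above 0 and 7 below, and the median was 0.041. The contractile genes Acta2, Actg2 and Cnn1 differed by 0.40, 0.32 and 0.31 and were higher in both MMTV-Cre arrays, as 16.7% of all genes were, with unadjusted p from 0.029 to 0.043. Mylk differed by 0.21 (interval −0.22 to 0.64) and by 0.014 without MMTV-Cre replicate 1. The contractile genes Myh11 and Tagln, chosen after their values were seen, differed by 0.19 and −0.015, with overlapping groups. The basal markers Krt14, Trp63, Nrg1 and Krt17, chosen after their values were seen, had differences of −0.33, −0.24, −0.20 and −0.18, with overlapping groups. Whether the hormone-sensing genes differ from these lists was not tested.

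Genes listed as responding to oestrogen or progesterone were also read, and whether they report receptor activity in these cells was not tested. Of 26 such genes, 24 were measured, 19 were above the limit and 0 passed, with 9 differences above 0, 10 below and a median of −0.011. The groups did not overlap for 3 higher and 2 lower genes, where 16.7% and 16.5% of all genes were in each class. The 1 with an unadjusted p under 0.05 was Igf1r, which encodes the receptor of insulin-like growth factor 1. It measured 4.22 and 4.08 in the MMTV-Cre arrays and 4.54 and 4.69 in the wild-type arrays. Both MMTV-Cre arrays were below both wild-type arrays, by −0.47 (SE 0.12, interval −0.79 to −0.15, unadjusted p = 0.012, limma adjusted p = 0.964), and the difference ran from −0.54 to −0.40 when each array was left out.

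Wnt4, the secreted signal that progesterone induces in hormone-sensing cells, measured 3.21 and 2.77 in the MMTV-Cre arrays and 3.32 and 3.44 in the wild-type arrays. It was lower in both MMTV-Cre arrays, near the dim end of the scale, with a difference of −0.39 (interval −0.84 to 0.059) that was −0.61 without MMTV-Cre replicate 1 and −0.18 without MMTV-Cre replicate 2. Irs2, an adaptor of the insulin and insulin-like growth factor receptors, measured 6.36 and 6.37 in the MMTV-Cre arrays and 6.18 and 5.86 in the wild-type arrays, a difference of 0.35 (−0.031 to 0.72) that was 0.18 without wild-type replicate 2. The fatty acid elongase gene Elovl2 differed by 0.32 (−0.061 to 0.71), also higher in both MMTV-Cre arrays, and by 0.19 without wild-type replicate 2. Its mean was 3.08 in MMTV-Cre and 2.75 in wild-type, so only its MMTV-Cre mean was above the limit for dim genes. Susd3, Tnfsf11, Zbtb16, Calcr and Tff3 were dim, and Areg and Pdzk1 were not analysed here.

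**Figure D4:**
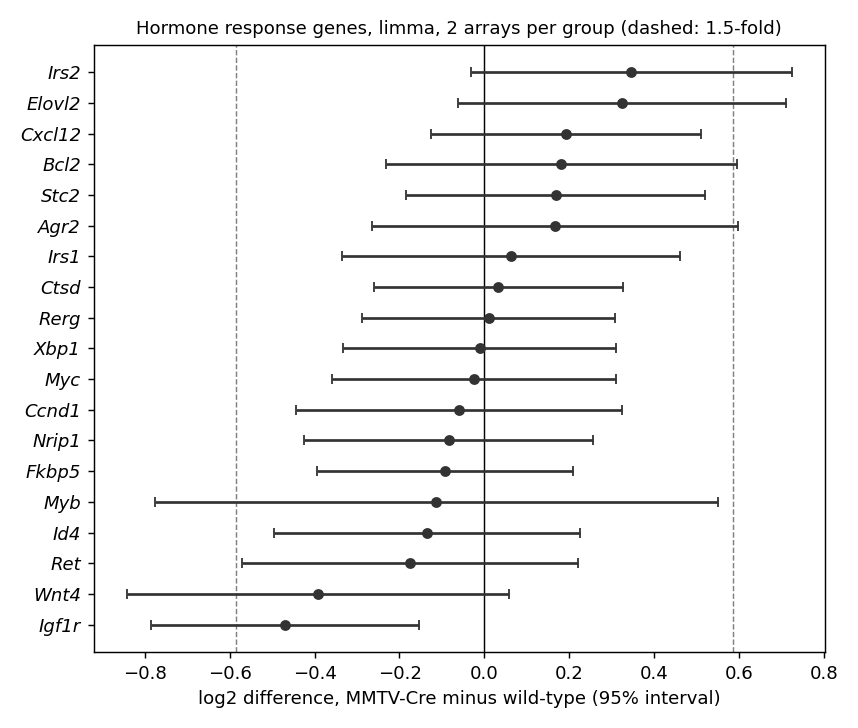
Log2 difference, MMTV-Cre minus wild-type, of the 19 hormone response genes tested, with 95% intervals from limma on 2 arrays per group and dashed lines at a 1.5-fold change. The differences run from −0.47 for Igf1r to 0.35 for Irs2, and Igf1r is the 1 gene whose interval leaves out 0.

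Further markers of hormone-sensing cells gave few values. Of 13, 8 were measured and 6 were above the limit, of which 0 passed and 4 had differences below 0. Of those tested, Wnt4, Stc2, Ret, Xbp1 and Rerg are also in the hormone response list, so these lists are not separate sets. Besides Wnt4, Kcnn4 differed by −0.34, the glycoprotein hormone gene Stc2 by 0.17 and the receptor tyrosine kinase gene Ret by −0.17, each with overlapping groups. Kcnn4 was at −0.078 without MMTV-Cre replicate 1 and −0.61 without MMTV-Cre replicate 2, Stc2 at 0.046 without wild-type replicate 2, and Ret at −0.023 without wild-type replicate 1. The list's centred mean was −0.073 and −0.051 in MMTV-Cre and 0.091 and 0.033 in wild-type, the opposite order of groups from the 9 hormone-sensing genes. Fxyd2 and Tnfsf11 were dim, and Ly6a, Prlr, Areg, Calca and Ptgs1 were not analysed here.

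Genes of proteins that act with the receptors showed small differences. Of 24 coregulators, chaperones and chromatin enzymes, 21 were tested and 0 passed, with a median of −0.024, and all 21 intervals lay within a 1.5-fold change. The groups did not overlap for 3 higher and 6 lower genes, where 16.7% and 16.5% of all genes were in each class. Ncoa4 differed by 0.17 and the chaperone gene Hsp90aa1 by 0.17, while the corepressor gene Tle3 differed by −0.18 and the histone methyltransferase gene Kmt2c by −0.14. Without wild-type replicate 1 Tle3 was at −0.084. Of 22 transcription factors that partner these genes, 14 were tested and 0 passed, with a median of 0.043. Hes1, a target of Notch signals, measured 6.67 and 6.47 in the MMTV-Cre arrays and 6.12 and 6.38 in the wild-type arrays (0.33, interval −0.051 to 0.70, and 0.20 without wild-type replicate 1). Grhl2 differed by 0.26, Spdef by −0.16 and Zfpm1, which encodes a cofactor of GATA proteins, by −0.15. Grhl2 was at 0.046 without wild-type replicate 1, Spdef at −0.096 without MMTV-Cre replicate 2 and Zfpm1 at −0.022 without MMTV-Cre replicate 1. Esr2, which encodes oestrogen receptor beta, was dim. By limma, unadjusted p-values under 0.05 were found for 0 of the 21 coregulator, 14 partner, 15 general epithelial and 6 further marker genes, for 2 of the 16 progenitor genes and for 3 of the 15 basal genes, where 4.32% of all genes had one.

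Among protein-coding genes, leaving out predicted genes and provisional symbols, Nfyc, Irf2bpl and Mad1l1 stayed closest to the profile of Esr1 over the 4 arrays. Likeness was the largest gap on any array between the genes' log2 values after subtracting each gene's mean, and it was 0.0066, 0.013 and 0.016 for these 3. Of all 11667 other genes tested, without that restriction, 114 (0.977%) lay within a gap of 0.05. With 4 arrays many genes thus share the profile of Esr1, and none of the other hormone-sensing genes was among the closest 3.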

How the data were processed

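Levels were measured on 1 Affymetrix array per sample, from 50 ng of total RNA, per the labels' protocols. The authors deposited 1 log2 value per probe set and array, produced with oligo and RMA per the submitters' processing notes, with versions not given in the sources used here. That the scale is log2 was read from the values, which ran from 0.37 to 12.48 with array medians of 2.83 to 2.86. RMA equalises the arrays, so a change common to most transcripts is hidden. Of 41345 probe sets, 23521 had 1 gene symbol, 1814 several and 16010 none in the platform annotation, and 22180 genes had a probe set with 1 symbol. The 11668 genes with a mean of at least 2.84 were tested with limma 3.58.1 in R 4.3.3 (lmFit, eBayes, two-sided, Benjamini-Hochberg, threshold 0.05), and the procedure was tested on simulated data. The number of arrays limits the precision, and an exact permutation test of 2 arrays against 2 (two-sided) goes no lower than p = 0.333.

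The members and lists were chosen with earlier results of these data known. Genes named from the other lists are up to 4 with the smallest unadjusted p, and the genes nearest Esr1 follow the rule in the text. List levels were summed over the genes measured after returning them to the linear scale. Alternatives were other filters, probe set rules, normalizations, variance models, the replicate block and leaving out each array. Same-numbered arrays did not deviate together across genes (correlation −0.0389), so the numbers were not taken as pairs.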

Additional observations from a re-analysis of the deposited data

How the results depend on the processing

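With all 4 arrays, 0 genes and 0 hormone-sensing genes passed by limma under no filter, a stricter filter (1 log2 unit higher), averaged probe sets, median centring, quantile normalization, robust variance, a variance trend and the replicate block. The median difference of the hormone-sensing genes then stayed between 0.059 and 0.085. Leaving out each array gave 0 to 13 genes past the threshold, the 13 without wild-type replicate 2, 0 hormone-sensing genes, and a median of 0.037 to 0.14. Such fits assume that the lone array varies like the other group. Without wild-type replicate 2 the lone wild-type array is replicate 1, which had the highest T and NK cell transcripts. The B cell list (7 of 8 genes measured, 3 above the limit) also summed highest there, to 212.1. It summed to 42.05 in wild-type replicate 2 and to 41.26 and 45.68 in MMTV-Cre. Of the single-gene differences over all settings, 418 kept their direction and call and 10 turned, all of them in hormone-sensing genes. The other genes counted were picked for the smallest unadjusted p in their lists, which the hormone-sensing genes were not. These counts therefore do not compare the stability of the sets. With the arrays left out the range was −0.11 to 0.10 for Pgr, −0.085 to 0.39 for Foxa1, −0.0093 to 0.12 for Gata3, −0.13 to 0.25 for Tbx3, −0.044 to 0.093 for Prom1 and −0.073 to 0.20 for Tspan8. Pgr also turned to 0.0042 under quantile normalization and 0.020 under median centring, and the dimmer Gata3 probe set gave −0.023. The alternatives for the genes of the other lists were chosen after seeing the data. With the replicate number as a block 0 genes passed, and it changed no call. The 95% intervals of the hormone-sensing genes had a median half-width of about 0.33, and were wider for Foxa1, Fgl2, Tbx3 and Tspan8. Differences smaller than a gene's half-width could not be told from 0. These intervals are not adjusted for the number of genes tested, so passing the threshold takes a larger difference. Igf1r, at −0.47 with an interval that left out 0, did not pass by limma (adjusted p = 0.964).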
